A study of Mus musculus with 18 samples.

Results

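The genes described here encode receptors for glutamate, acetylcholine, extracellular ATP and serotonin. They were chosen by a rule on gene names, with earlier results of these data known. It took every array spot whose gene symbol in the platform annotation begins with a receptor name, followed by its number or subunit letter. The names were those of ionotropic (Gria, Grid, Grik, Grin) and metabotropic (Grm) glutamate receptors. They also covered nicotinic (Chrn) and muscarinic (Chrm) acetylcholine receptors, P2X receptors (P2rx) and serotonin receptors (Htr). The rule found 59 of 21765 spots, for 54 of 15095 named genes. Of these, 53 encode receptors or their subunits (4 AMPA, 4 kainate, 1 delta, 5 NMDA, 3 metabotropic glutamate, 13 nicotinic, 4 muscarinic, 5 P2X and 14 serotonin). The remaining gene, Grid2ip, met the rule by the start of its symbol and encodes a scaffold protein, not a receptor. Chrm1, Chrna4, Gria1, Gria3 and Htr2c had more than 1 spot, whose ratios were averaged, and every other gene rested on a single spot.

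Each array compared RNA of DBA/2J mice with RNA of C57BL/6J mice, which are inbred strains, in whole brain, whole kidney or whole liver, with 6 arrays per tissue. Each brain and kidney pool held RNA of 10 mice of a strain, and each liver pool that of 9. The labels used here give no age, sex or treatment. Since 1 pool per strain and tissue served all 6 arrays, p-values measure the spread between hybridisations and not between mice. DBA/2J RNA always carried the same dye, so a dye effect that is constant for a spot cannot be told apart from a strain difference. Values are log2 ratios of DBA/2J over C57BL/6J, so that a positive value means a higher level in DBA/2J and a value of 1 a doubling. That direction is likely rather than stated, since it was taken from the dyes in the labels and the usual channel order. Glo1, a gene duplicated in DBA/2J, was above 0 on 6 of 6 arrays in each tissue (brain 0.65 ± 0.13, kidney 0.81 ± 0.34, liver 0.91 ± 0.15, mean ± SD, n = 6 arrays). In whole tissue, fewer cells of a type and less RNA per cell cannot be told apart.

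Glutamate carries most fast excitation in the brain. AMPA and kainate receptors open within milliseconds of its release, NMDA receptors also need depolarisation and admit calcium, and metabotropic receptors act through G proteins. Nicotinic receptors are acetylcholine-gated channels of neurons and, with other subunits, of the muscle endplate, whereas muscarinic receptors are coupled to G proteins and also serve smooth muscle and glands. P2X receptors are channels opened by ATP, and the serotonin receptors are G protein-coupled apart from the HTR3 channels. Many of these genes are transcribed mainly in neurons, and kidney and liver served as the contrast.

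The labelled tissues were first compared with marker genes by spot intensity, which was recovered from the ratios and set to 0 at the median of each array (log2 units, no test). Of the measured markers of neurons, astrocytes and oligodendrocytes, 13 of 13 were brightest in brain. Of the liver markers 7 of 7 were brightest in liver, and of the kidney markers 5 of 7 in kidney. The exceptions were Aqp2, a water channel of the collecting duct, which was brightest in liver, and Nphs1. Microglial markers were brightest in brain for 2 of 3 genes, skeletal muscle markers for 1 of 3 and blood markers for 0 of 2. Brain array 1 stood apart, with a mean correlation of 0.247 with the other brain arrays against 0.354 to 0.445 for the others.

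The receptor genes were then compared between tissues by recovered intensity. The lowest brain array lay above the highest kidney and liver array for 6 of 54 genes (11.1%), against 10.0% of all features: Gria1, Gria2, Gria3, Grm2, P2rx5 and Htr6. That share was near the one over all features. With the intensity unrestored the count was 2, and the share of all features in that setting was not computed. Gria1, a principal AMPA subunit of the hippocampus and cortex, lay between 3.58 and 4.28 in brain, with a median of 3.74. Its kidney and liver medians were -0.57 and -0.507. Gria2, the subunit that makes AMPA receptors impermeable to calcium, had a median of 2.12 in brain, against -0.821 in kidney and -1.1 in liver. Htr6, a serotonin receptor of the striatum and cortex, had medians of 4.34, 1.01 and 2.27. That no brain array of these genes overlapped the other tissues follows from how they were picked. Intensities were recovered using the other arrays of the same tissue, so their spread is too small for a test.

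Several other spots did not follow the tissue their gene is known for. Chrm3, the muscarinic receptor of glands and smooth muscle, had a median of 3.27 in liver but -0.718 in brain and -0.685 in kidney. Chrnb3, a nicotinic subunit of midbrain neurons, likewise stood at 2.35 in liver, -1.33 in brain and -0.824 in kidney. Grin2d, an NMDA subunit, was brightest in liver (4.21), then kidney (3.31), then brain (2.14). Chrna4, a subunit of the main nicotinic receptor of the brain, had medians of 3.43, 3.52 and 3.52, and its spots differed by far, with brain medians of 6.27 and 0.533. The highest brain array lay below all kidney and liver arrays for 3 of 54 genes, Chrna2, P2rx6 and Grin2d, against 7.94% of all features. Whether a spot measured the gene it is named for was not tested.

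**Figure D1:**
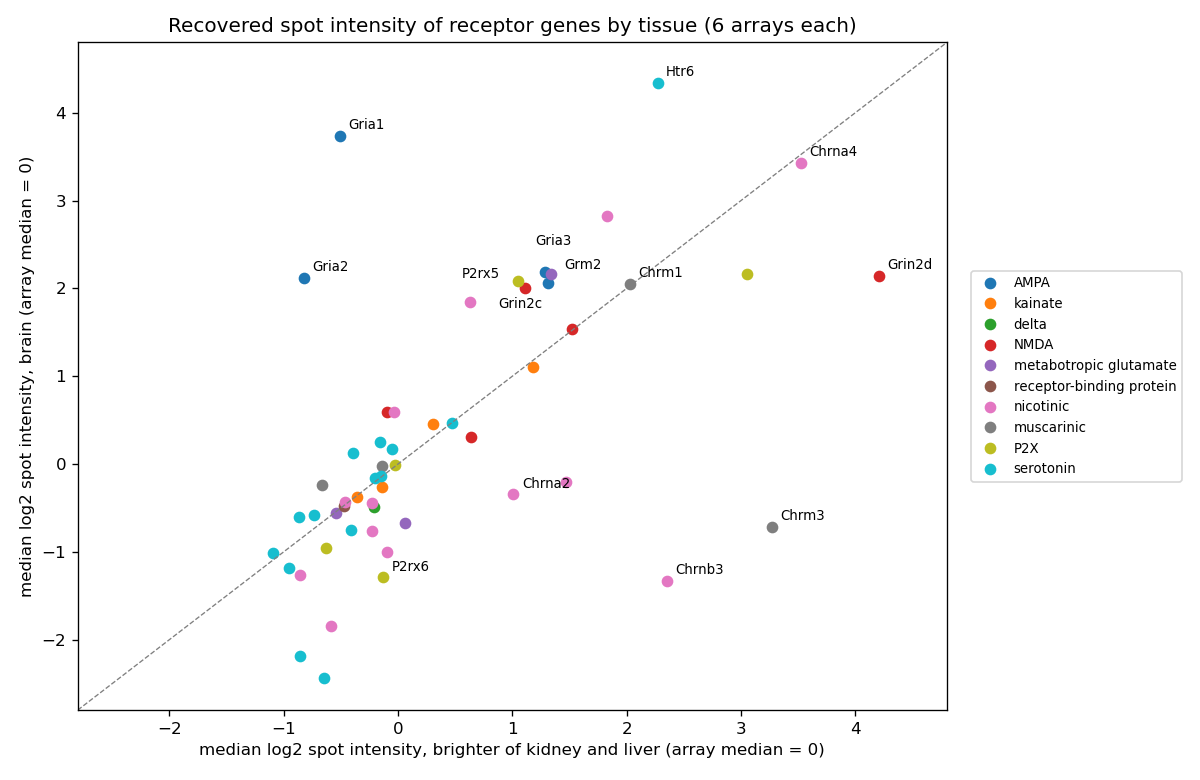
Median recovered log2 spot intensity on the 6 brain arrays (vertical axis) against the brighter of the kidney and liver medians (horizontal axis), 1 point per receptor gene, coloured by class, with 0 at the array median and the dashed line at equality. Gria1, Gria2 and Htr6 lie far above the line, and Chrm3, Chrnb3 and Grin2d far below it.

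The strain comparison in brain asked whether receptor RNA levels differed between the strains. Of the 54 genes, 7 passed the threshold, which is an adjusted p below 0.05 in limma with Benjamini-Hochberg adjustment over all 20218 features. That share, 13.0%, was near the 14.0% of all features that passed. Without brain array 1, 9 genes passed, 6 of them among the 7, and 16.5% of all features passed. Of the 7, 1 was higher in DBA/2J (7.60% of all features) and 6 were lower (6.42%). Without loess the split was 3 higher and 7 lower, where 17.5% of all features passed. Only 4 of the 7 genes as reported passed in that setting. The means of 34 genes lay below 0 and of 20 above it, with a median of -0.053. A difference of at least 1.5-fold was found for P2rx5, Htr1a and Htr6, 3 of 54 genes against 1.78% of all features.

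P2rx5, an ATP-gated channel subunit known from sensory neurons and muscle, showed the largest difference. Its brain arrays gave -1.67, -1.67, -1.19, -1.27, -0.44 and -1.47 in the order of replicates 1 to 6. All lay below 0, and array 5 stood closest to it. The mean was -1.28 ± 0.46 (SD, n = 6 arrays), or 2.44-fold lower in DBA/2J (limma, adjusted p = 0.000276). It passed under all 12 alternatives tried, with means between -1.45 and -1.21 when any 1 brain array was left out. The same spot was near 0 in the other tissues, at 0.16 ± 0.15 in kidney (adjusted p = 0.0836) and -0.11 ± 0.15 in liver (adjusted p = 0.262). No brain array overlapped a kidney or liver array, but how many of all features share this was not computed. The differences of -1.45 ± 0.15 (SE) from kidney and -1.17 ± 0.15 from liver passed the threshold (limma, adjusted p = 4.35e-07 and 1.39e-05).

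The other P2X subunits moved less in brain. P2rx6, which assembles poorly on its own and joins other subunits, ranged from -0.59 to -0.052 with a median of -0.28. Its mean of -0.27 ± 0.20 passed narrowly (adjusted p = 0.0444), on a dim spot at percentile 10.3 of intensity, and the call ended when any 1 of the 6 arrays was left out, with means from -0.32 to -0.21. It also ended without loess (-0.30) and with 1 loess curve per array (-0.10). P2rx7, the receptor of microglia that opens a large pore under sustained ATP, had a mean of -0.16 ± 0.11, and P2rx1, of platelets and smooth muscle, one of -0.19 ± 0.27. P2rx4, which is widely expressed, was at 0.012 ± 0.18, the highest mean of its class. The class median was -0.19.

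Among the serotonin receptors Htr1a and Htr6 were lower in DBA/2J brain and 12 of 14 genes did not pass. Htr1a encodes the autoreceptor of raphe neurons, which is also a postsynaptic receptor in the hippocampus. Its brain arrays lay between -0.98 and -0.32 with a median of -0.70, all below 0. The mean of -0.64 ± 0.25 (1.56-fold lower, adjusted p = 0.00140) passed under all 12 alternatives. Htr6, which raises cyclic AMP, gave -0.078, -0.30, -0.38, -1.20, -0.49 and -1.18 on arrays 1 to 6. Arrays 4 and 6 were lower than the rest, and the mean of -0.61 ± 0.47 (1.52-fold lower, adjusted p = 0.0148) fell to -0.49 without either of them, no longer past the threshold (adjusted p = 0.0552 and 0.0514). Without loess it was -0.35 and did not pass.

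The remaining serotonin receptors had brain means between -0.20 (Htr1b, a terminal autoreceptor) and 0.22 (Htr1d, its close relative, which passed without brain array 2 at 0.30). Htr2a, the cortical receptor of the psychedelics, stood at -0.15 ± 0.41, with its lowest array at -0.90. Htr2c, of the choroid plexus and hypothalamus, averaged 0.12 ± 0.10, but its spots disagreed. One gave 0.42 ± 0.27 with 6 of 6 arrays above 0, and the other -0.19 ± 0.21 with 5 of 6 below. The channel subunits Htr3a (0.12 ± 0.16) and Htr3b (0.025 ± 0.19) lay close to 0. The class median was -0.09.

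Among the ionotropic glutamate receptors 1 gene was higher, 1 lower and 12 of 14 did not pass. Gria3, an AMPA subunit encoded on the X chromosome, ranged from 0.18 to 0.44 with a median of 0.23 and was above 0 on all brain arrays. Its mean was 0.26 ± 0.10 (1.20-fold higher, adjusted p = 0.0272), and its spots gave 0.39 ± 0.21 and 0.14 ± 0.11. The call ended without brain array 2, 4, 5 or 6, with means from 0.23 to 0.27. Grin2a, the NMDA subunit of mature forebrain synapses, gave -0.043 on array 1 and between -0.31 and -0.23 on the others. Its mean of -0.23 ± 0.094 (1.17-fold lower, adjusted p = 0.0450) lost the call without any 1 of arrays 2 to 6 (-0.23 to -0.21), without loess (-0.21) and with 1 loess curve per array (-0.25).

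The other AMPA subunits were at 0.11 ± 0.14 for Gria1, 0.13 ± 0.25 for Gria2 and -0.057 ± 0.22 for Gria4, and did not pass, Gria1 and Gria2 on spots that were bright in brain alone. The spots of Gria1 gave 0.24 ± 0.26 and -0.02 ± 0.3. On Gria2 a single array reached 0.63, and the median was 0.021. The kainate subunits lay between -0.086 (Grik5) and 0.092 (Grik1), with Grik1 spread from -0.51 to 0.67. The delta receptor gene Grid1 averaged -0.24 ± 0.18 (adjusted p = 0.0600), and passed without loess (-0.32), without brain array 1 (-0.31) and in 1 fit of all 18 arrays. Among the NMDA subunits, Grin2b, the juvenile and extrasynaptic partner of Grin2a, scattered widely (-0.21 ± 0.42, from -0.70 to 0.33). Grin2c, of cerebellar granule cells, was tight at -0.18 ± 0.078 (adjusted p = 0.0931), and Grin2d was the highest of its class at 0.11 ± 0.067. Grid2ip was at 0.088 ± 0.19.

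None of the 3 metabotropic receptor genes passed in brain (0 of 3, with 0 of 3 means below 0). Grm3, an astrocyte and presynaptic receptor, had the highest mean at 0.18 ± 0.16. Grm2, a presynaptic autoreceptor, stood at 0.093 ± 0.14 and Grm8 at 0.042 ± 0.32.

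Among the nicotinic genes Chrna7 was lower in brain and 12 of 13 genes did not pass. Chrna7 encodes the subunit of the calcium-permeable homomeric receptor of hippocampal interneurons, which binds alpha-bungarotoxin. Its arrays lay between -0.56 and -0.22 with a median of -0.39, all below 0. The mean of -0.40 ± 0.12 (1.32-fold lower, adjusted p = 0.00469) passed under all 11 alternatives that could be computed for it. Its spot was among the dimmest, at percentile 3.03 of brain intensity, and a filter on dim features left it out. The subunits of the main brain receptor, Chrna4 (0.14 ± 0.20) and Chrnb2 (0.19 ± 0.13, the highest nicotinic mean, adjusted p = 0.0951), did not pass. Chrnb3 averaged -0.30 ± 0.30, with array 6 at -0.89. The endplate subunits Chrna1, Chrnb1, Chrnd, Chrne and Chrng lay between -0.15 and 0.16. The muscarinic genes lay between -0.14 (Chrm3) and 0.12 (Chrm2, the cardiac and presynaptic receptor), and 0 of 4 passed.

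**Figure D2:**
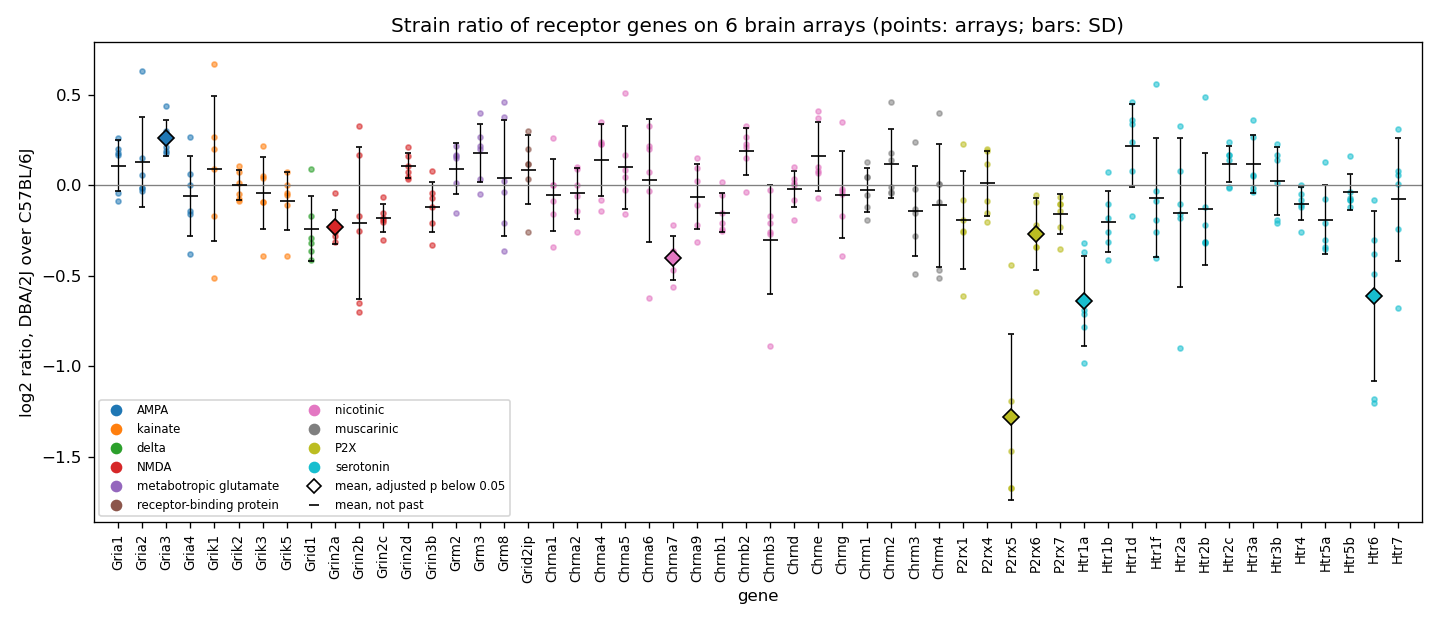
Log2 ratio of DBA/2J over C57BL/6J of 54 receptor genes on the 6 brain arrays (points), with the mean and SD (bars), coloured by class. Diamonds mark the 7 genes past the threshold. P2rx5 lies lowest at -1.28, and most means lie within 0.3 of 0.

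In kidney 23 of 54 genes passed (42.6%, against 39.7% of all features), 6 higher (19.9%) and 17 lower (19.8%). The median of the 54 genes was -0.078. Of these 23 genes, 12 lay among the dim features, by mean intensity over all 18 arrays, that an alternative filter removes. Among those 12 of 20 receptor genes passed, 1 higher and 11 lower. Of the brighter ones 11 of 34 passed, 5 higher and 6 lower. With the dim features filtered out, 37.2% of all features kept passed. The share among all dim features was not computed. Kidney ratios correlated with intensity before normalisation by 0.598 to 0.706. Brain ratios did so by 0.013 to 0.579, depending on the array, and liver ratios by -0.163 to 0.302. The part this plays in the lower ratios of the 20 dim receptor genes was not tested. A 1.5-fold difference was found for Grin2c, P2rx6, Htr5a and Chrm2, 4 of 54 genes against 4.36% of all features.

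Among the NMDA subunits 3 of 5 were higher in kidney, where 19.9% of all features were, and Grin2c had the highest mean of the 54 genes. It gave 0.77, 1.17, 1.11, 0.87, 1.65 and 0.18 on arrays 1 to 6, all above 0 with array 6 lowest. The mean was 0.96 ± 0.49 (1.94-fold higher in DBA/2J, adjusted p = 0.000120), but 0.34 without loess, where it did not pass (adjusted p = 0.0548). Its spot was dim in kidney, at percentile 9.17, and bright in brain, at percentile 89.5. Grin2b ranged from 0.25 to 0.78 with a median of 0.37, all above 0, and its mean of 0.47 ± 0.24 (adjusted p = 0.000688) passed under all 12 alternatives. Grin2d was higher at 0.50 ± 0.16 (adjusted p = 0.000143), but not past the threshold in 1 fit of all 18 arrays (adjusted p = 0.0774). That fit takes the spread from liver too, where the SD of Grin2d was 1.15. Grin2a (-0.022 ± 0.15) and Grin3b (-0.073 ± 0.18) did not pass in kidney, and 0 of 5 were lower there.

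Of the serotonin receptors 0 were higher, 7 lower and 7 of 14 not past the threshold in kidney, with 12 of 14 means below 0 and a median of -0.18. Of all features, 19.9% were higher and 19.8% lower. The lower counts under other normalisations were 11 without loess, 7 with 1 loess curve and 9 with the intensity unrestored, with 1, 1 and 0 higher. Of all features, 64.9%, 32.5% and 51.8% passed in either direction in these settings, against 39.7% as reported. Htr5a, a receptor coupled to inhibitory G proteins, lay between -1.16 and -0.32 with a median of -0.61, all below 0, and its mean was -0.64 ± 0.29 (1.56-fold lower, adjusted p = 0.000146). Htr1f, the receptor targeted by newer migraine drugs, averaged -0.49 ± 0.12, and Htr4, which acts in gut and heart, -0.48 ± 0.13. Htr2b, of heart valves and smooth muscle, averaged -0.47 ± 0.29 and Htr1a -0.44 ± 0.26. Htr3a (-0.23 ± 0.093) and Htr1b (-0.20 ± 0.10) were lower by less, and the call of Htr1b ended without kidney array 1, 3 or 6 (-0.17 to -0.19), with 1 loess curve and with the intensity unrestored. All of these but Htr1a were dim by the same filter.

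Of the 13 nicotinic subunits 1 was higher (19.9% of all features) and 5 lower (19.8%) in kidney. Chrng, the fetal subunit of the endplate receptor, ranged from 0.31 to 0.53 with a median of 0.41, at a mean of 0.42 ± 0.11 that was 0.016 without loess. Chrna7 was at -0.44 ± 0.15 and Chrna2 at -0.34 ± 0.17, the latter -0.042 without loess. Chrna9, of cochlear hair cells, was at -0.29 ± 0.059 and Chrna5 at -0.26 ± 0.18. The call of Chrna9 ended without loess (-0.19) and with 1 loess curve (-0.018), and that of Chrna5 with the intensity unrestored (-0.17). Chrnb3 averaged -0.27 ± 0.25, and its call ended without kidney array 1 or 3 (-0.24 and -0.19) and with 1 loess curve (-0.31).

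Chrm2 was higher in kidney on every array, from 0.50 to 0.75 with a median of 0.59. Its mean of 0.61 ± 0.10 (1.53-fold, adjusted p = 1.31e-05) shrank to 0.12 without loess (adjusted p = 0.339). P2rx6 was lower on every array, from -0.92 to -0.56 with a median of -0.64, and its mean of -0.67 ± 0.14 (1.6-fold, adjusted p = 1.01e-05) passed under all 11 alternatives. Grid1 (-0.35 ± 0.12) and Grm8 (-0.31 ± 0.20) were lower under every alternative computed. Gria3 (0.16 ± 0.068, adjusted p = 0.0495), Gria4 (-0.22 ± 0.16, adjusted p = 0.0248) and Grik5 (-0.21 ± 0.18, adjusted p = 0.0416) passed narrowly. Gria4 turned to 0.33 and Grik5 to 0.17 without loess. The call of Gria3 ended without kidney array 1, 2, 3, 4 or 6 (0.15 to 0.17), that of Gria4 without array 1, 2 or 5 (-0.17, -0.20 and -0.21) and that of Grik5 without array 1, 2, 4 or 6 (-0.20, -0.18, -0.16 and -0.21). With 1 loess curve per array none of these 3 passed (0.14 for Gria3, -0.19 for Gria4 and -0.27 for Grik5). With the intensity unrestored Gria4 (-0.069) and Grik5 (-0.14) did not pass, nor did Gria4 in 1 fit of all 18 arrays. The spots of Gria3 gave 0.058 ± 0.17 and 0.27 ± 0.12 in kidney, and the first of these, used when 1 spot stood for the gene, did not pass. Of the 23 kidney calls, 11 held under every alternative computed for them.

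In liver 12 of 54 genes passed (22.2%, against 23.0% of all features), 3 higher (10.9%) and 9 lower (12.1%), with a median of -0.052. Of the genes past the threshold, Chrm3 and Htr1a differed by at least 1.5-fold, 2 of 54 genes against 2.42% of all features. Chrm3 gave -1.02, -0.051, -0.73, -1.10, -1.10 and -1.22 on arrays 1 to 6, with array 2 near 0 and the others well below. Its mean was -0.87 ± 0.43 (1.83-fold lower, adjusted p = 0.000859) and was -1.03 without array 2. This spot was bright in liver (percentile 96.5) and dim in brain and kidney, where its means were -0.14 ± 0.25 and -0.16 ± 0.12 and did not pass.

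Htr1a in liver ranged from -0.82 to -0.48 with a median of -0.64, and averaged -0.63 ± 0.12 (1.55-fold lower, adjusted p = 8.02e-05). Htr5a (-0.40 ± 0.10), P2rx6 (-0.40 ± 0.21), Htr1f (-0.34 ± 0.082), Chrnb1 (-0.32 ± 0.12) and Chrna7 (-0.28 ± 0.14) were lower, and the call of P2rx6 ended without loess (-0.22) and with 1 loess curve (-0.21). Chrna6, of dopaminergic neurons, averaged -0.27 ± 0.22 and Chrna9 -0.21 ± 0.10. The call of Chrna6 ended without liver array 1, 3, 5 or 6 (-0.22 to -0.26) and that of Chrna9 without array 1, 3, 4 or 6 (-0.19 to -0.23), without loess (-0.08) and with 1 loess curve (-0.033). On the higher side stood Htr6 (0.39 ± 0.41, adjusted p = 0.0370), Grin3b, an NMDA subunit of motor neurons (0.30 ± 0.26, adjusted p = 0.0335), and Chrne, the adult endplate subunit (0.23 ± 0.11, adjusted p = 0.0244). None of these 3 was past the threshold without array 3, 4, 5 or 6, with means from 0.28 to 0.42 for Htr6, 0.25 to 0.28 for Grin3b and 0.21 to 0.23 for Chrne. Grin2d averaged -0.79 ± 1.15 in liver without passing (adjusted p = 0.0823). Array 5 stood at -3.12 and the others between -0.58 and -0.09. It passed as lower without array 5 (-0.33, adjusted p = 0.0167), without loess (-0.83), with 1 loess curve (-0.91) and in 1 fit of all 18 arrays (adjusted p = 0.0108). Array 5 was also lowest for Htr1d, at -1.48.

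**Figure D3:**
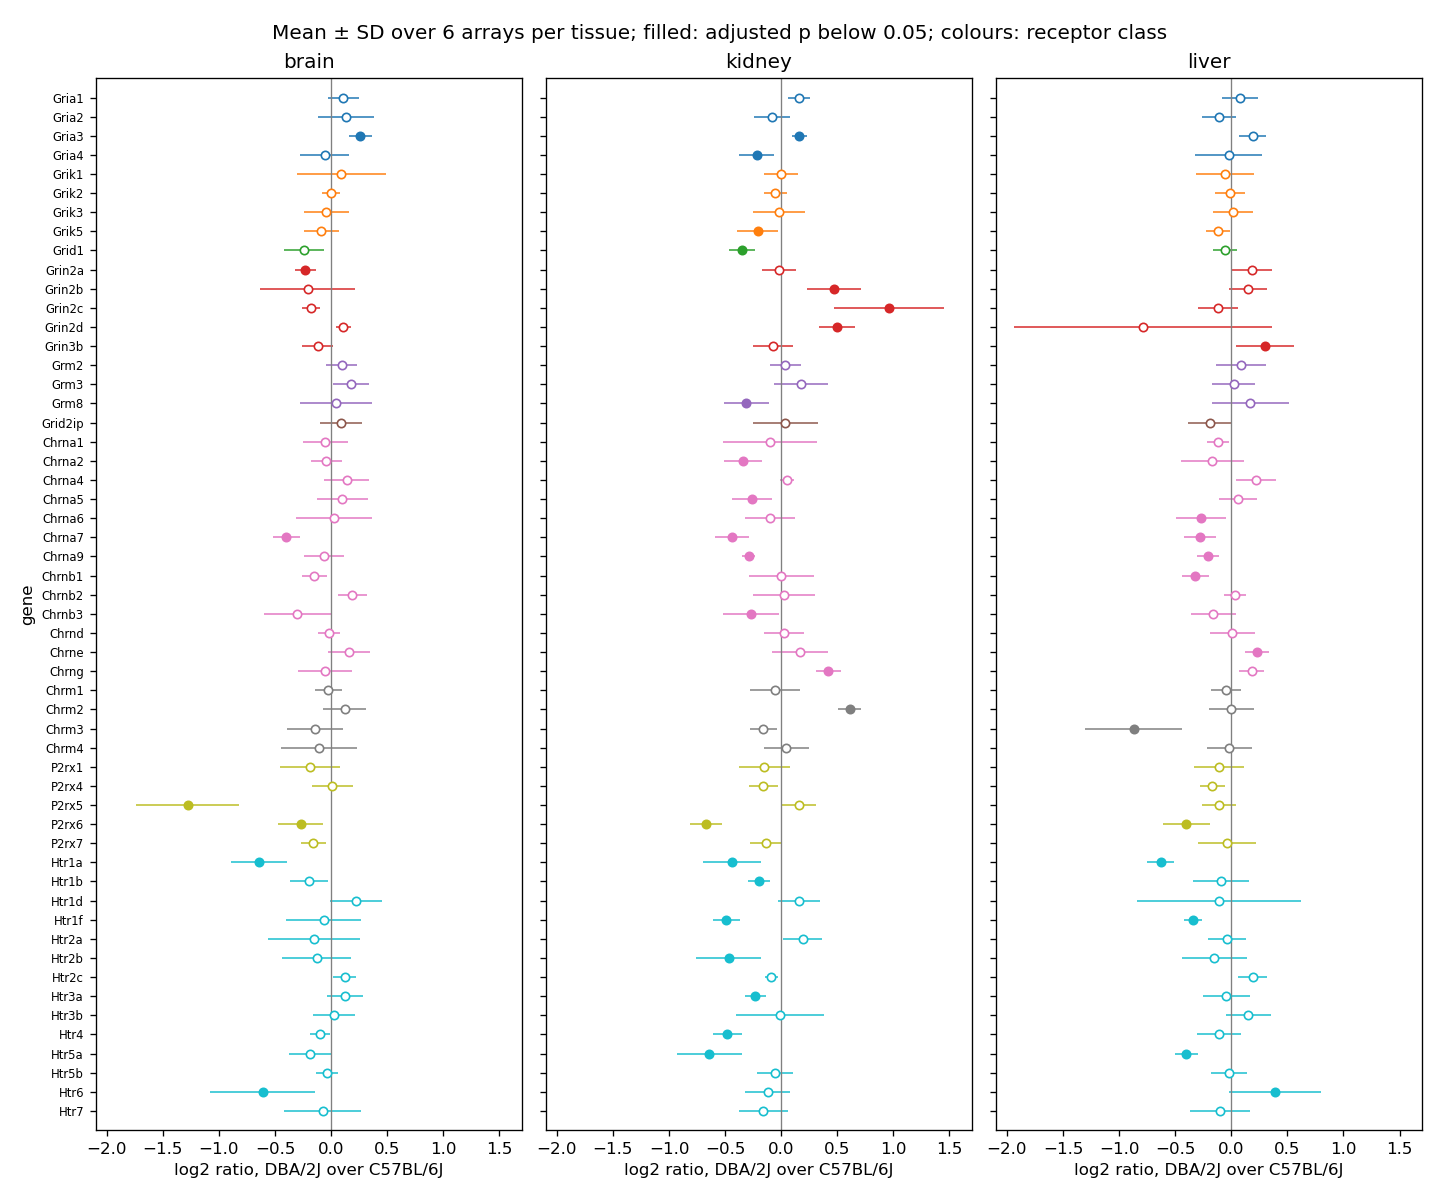
Mean log2 ratio of DBA/2J over C57BL/6J (horizontal axis) with SD over 6 arrays for 54 receptor genes in brain, kidney and liver, coloured by class. Filled points passed the threshold (brain 7, kidney 23, liver 12), most of them left of 0.

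The difference between tissues was tested directly, in a limma fit of the 18 arrays. Brain minus kidney passed for 11 of 54 genes (20.4%, against 22.6% of all features), 6 with a higher ratio in brain (11.7%) and 5 with a lower one (10.9%). That split was 17 and 8 without loess and 3 and 5 with 1 loess curve, where 35.2% and 17.6% of all features passed. Of the 11 genes, 6 passed without loess and 7 with 1 loess curve. A 1.5-fold difference was found for P2rx5, Grin2c and Grin2b, 3 of 54 genes against 5.13% of all features. Besides P2rx5, the lower ratios in brain belonged to Grin2c (-1.14 ± 0.15, SE, adjusted p = 1.78e-05), Grin2b (-0.68 ± 0.15), Chrm2 (-0.50 ± 0.11) and Chrng (-0.47 ± 0.10), each of them above 0 in kidney. None of these 4 differences passed without loess, where they were -0.34, -0.38, -0.012 and -0.12. The higher ratios belonged to Htr5a (0.45 ± 0.12), Htr1f (0.42 ± 0.12), P2rx6 (0.40 ± 0.11), Htr4 (0.38 ± 0.10), Chrna5 (0.36 ± 0.11) and Htr3a (0.35 ± 0.10), all below 0 in kidney. Those of Htr5a (0.33), Htr1f (0.34) and Chrna5 (0.30) did not pass with 1 loess curve, nor that of Chrna5 without loess (0.27), without brain array 2 (0.28), or without kidney array 2 or 5 (0.33 each). For Grin2c, Chrm2, Htr3a and Htr4, as for P2rx5, the arrays of the 2 tissues did not overlap. The same held for Grin2d and Htr2c, which did not pass (limma, adjusted p = 0.38 and 0.0886). The fit takes a single spread per gene from the tissues together, liver included. For Grin2d the SE was 0.31, with a liver SD of 1.15 and liver array 5 at -3.12. The share of all features without overlap was not computed.

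Brain minus liver passed for 5 of 54 genes (9.26%, against 7.59% of all features), 1 with a higher ratio in brain (4.33%) and 4 with a lower one (3.25%). The split was 1 and 2 both without loess and with 1 loess curve, where 4.11% and 4.29% of all features passed. A 1.5-fold difference was found for P2rx5, Htr6 and Chrm3, 3 of 54 genes against 2.51% of all features. Htr6 was lower in brain and higher in liver, with arrays from -1.20 to -0.078 in brain and from -0.27 to 0.97 in liver. These ranges overlapped by the lowest liver array. The difference of -1.0 ± 0.19 (adjusted p = 0.000966) passed under all 18 alternatives, although both single-tissue calls were fragile. Grin2a (-0.41 ± 0.10) also differed with opposite signs, at -0.23 in brain and 0.18 in liver, without overlap of the arrays, but not without loess (-0.23) or with 1 loess curve (-0.24). The arrays of Grin2d did not overlap either, and its difference did not pass (limma, adjusted p = 0.0807). For brain and liver, too, the share of all features without overlap was not computed. Grin3b differed by -0.41 ± 0.12 and Chrm3 by 0.73 ± 0.15, and neither passed without loess (-0.39 and 0.47). The difference of Grin3b also did not pass with 1 loess curve (-0.46), without brain array 3 or 6 or without liver array 3, 4, 5 or 6, with values from -0.40 to -0.36.

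**Figure D4:**
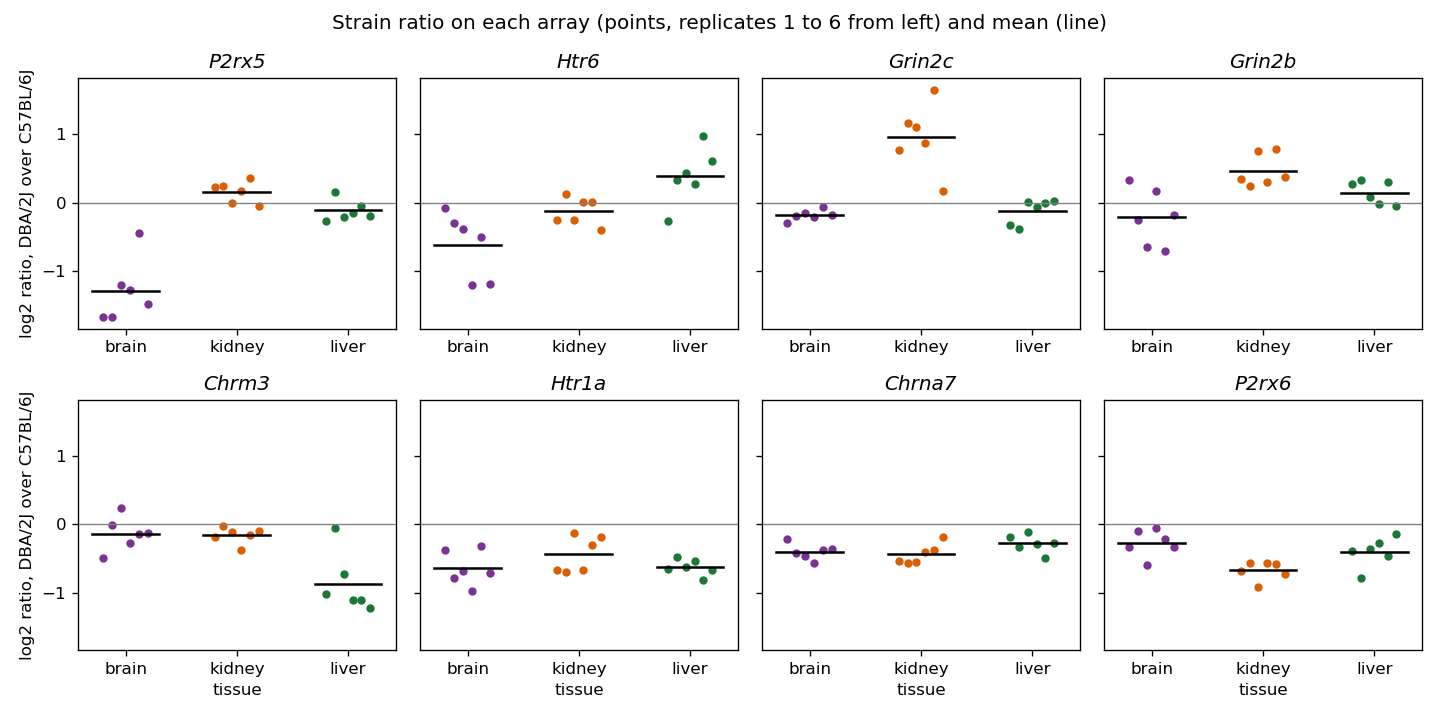
Log2 ratio of DBA/2J over C57BL/6J on each array (points, replicates 1 to 6 from left to right) and mean (line) for 8 receptor genes in brain, kidney and liver. P2rx5 is low in brain alone, Htr6 is below 0 in brain and mostly above 0 in liver, and Htr1a, Chrna7 and P2rx6 lie below 0 on all 18 arrays.

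Htr1a, Chrna7 and P2rx6 passed as lower in all 3 tissues. Each was below 0 on every one of the 18 arrays. With 1 averaged value per tissue, the means were -0.57 for Htr1a, -0.45 for P2rx6 and -0.37 for Chrna7, and none passed (limma, adjusted p = 0.0817, 0.127 and 0.122). In that fit 0 of 54 genes passed, as did 0.00% of all features, while 11 of 54 genes had an unadjusted p below 0.05, against 18.1% of all features. With the 18 arrays as separate values 25 of 54 genes passed, against 37.7% of all features, and with 1 loess curve per array 3 passed, against 1.99%. No member passed as higher in all tissues. The tissues shared the dye orientation and the spots, so strain and a constant spot or dye effect cannot be told apart for these genes. In all, 23 genes passed in no tissue (42.6%, against 44.5% of all features), 23 in a single tissue (42.6% against 37.9%), 5 in a pair of tissues (9.26% against 14.2%) and 3 in all (5.56% against 3.44%). Of all features, 2.04% passed as lower in all 3 tissues.

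The promoters of the genes that were lower in every tissue are shown for reference, from RefSeq (build GRCm38.p6), which held an entry for 39 of the 54 genes. Each runs 5′ to 3′ from 250 bases before to 50 bases after the gene's start. Capitals mark matches, sought on either strand, to the letters TATAAA for the TATA box, to CCAAT for the box of that name, to GGGCGG for the GC box, to TGACGTCA for the cAMP response element and to CACGTG for the canonical E-box.
Htr1a, chr13:105443443-105443742, plus strand: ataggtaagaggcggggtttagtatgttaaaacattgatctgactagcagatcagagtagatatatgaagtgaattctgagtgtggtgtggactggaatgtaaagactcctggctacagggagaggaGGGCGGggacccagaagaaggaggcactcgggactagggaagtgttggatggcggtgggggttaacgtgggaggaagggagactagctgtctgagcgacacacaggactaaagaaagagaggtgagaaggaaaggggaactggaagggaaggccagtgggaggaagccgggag
Chrna7, chr7:63212477-63212776, minus strand: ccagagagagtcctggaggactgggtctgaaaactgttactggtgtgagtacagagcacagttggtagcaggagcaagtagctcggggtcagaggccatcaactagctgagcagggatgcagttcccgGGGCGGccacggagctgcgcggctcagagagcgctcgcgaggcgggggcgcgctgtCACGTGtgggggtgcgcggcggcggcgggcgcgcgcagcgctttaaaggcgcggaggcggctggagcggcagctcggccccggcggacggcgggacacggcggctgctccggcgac
P2rx6, chr16:17561635-17561934, plus strand: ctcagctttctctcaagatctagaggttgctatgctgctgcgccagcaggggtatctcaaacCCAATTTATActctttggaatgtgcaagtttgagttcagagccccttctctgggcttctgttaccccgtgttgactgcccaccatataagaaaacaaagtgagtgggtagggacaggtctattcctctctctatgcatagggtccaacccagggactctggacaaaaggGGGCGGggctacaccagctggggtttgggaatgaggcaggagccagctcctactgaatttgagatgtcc
Each held 1 GC box, a motif found in 35.7% of all 32851 promoters of this length. Chrna7 also held an E-box (7.15% of promoters), and P2rx6 a CCAAT box (37.4%) that overlaps a TATA box on the other strand (13.6%). None held the cAMP response element (1.79%). The share of G and C was 70.0% for Chrna7, 52.3% for Htr1a and 51.3% for P2rx6, against a median of 52.7%. A match is a description of the letters and not a site.

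Genes that act with these receptors were taken from a written list of 112 genes, of which 84 were measured. Of these, 7 passed in brain (8.33%, against 14.0% of all features), 3 higher (3.57% against 7.60%) and 4 lower (4.76% against 6.42%). None of 14 glutamate receptor scaffolds and 11 auxiliary subunits passed, and none of 7 genes of serotonin synthesis, transport and breakdown. Glul, which turns glutamate into glutamine in astrocytes, was lower with arrays between -1.26 and -0.28 (-0.95 ± 0.34, 1.93-fold, adjusted p = 0.000505), as was Slc1a2, the main astrocytic glutamate transporter (-0.29 ± 0.17, adjusted p = 0.0273). Src, a kinase that enhances NMDA receptor currents, was higher (0.44 ± 0.21), and so was Camk2a, the calcium-activated kinase of the postsynaptic density (0.50 ± 0.52, adjusted p = 0.0425), on a spot at percentile 6.33.

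Slc5a7, the choline transporter of cholinergic terminals, was the tightest of these genes, with arrays from -0.49 to -0.40 (-0.45 ± 0.039, 1.36-fold lower, adjusted p = 0.00160). It was the single gene past the threshold among 10 of cholinergic synthesis, release and receptor assembly. P2ry4, a G protein-coupled nucleotide receptor, was higher (0.38 ± 0.11) and Entpd2, an enzyme that degrades ATP outside cells, lower (-0.41 ± 0.41, adjusted p = 0.0468), with 15 of 17 purine signalling genes not past. In kidney 19 of the 84 genes were higher (22.6%, against 19.9% of all features) and 17 lower (20.2% against 19.8%). In liver 3 were higher (3.57% against 10.9%) and 7 lower (8.33% against 12.1%).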

How the data were processed

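The deposited table held log2 ratios for 23040 spots on 18 two-colour arrays. Per the labels, the authors quantified spots with Spot and normalised by print-tip lowess in limma. The software versions were not given in the sources used here, nor was any background subtraction. Deposited log2 values were ratios of whole numbers for 100.0% of spots (tolerance 1e-12), with array medians between -1.65 and 0.16, and were treated as not normalised. Spots at 0 on every array (1275) were left out.

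Whole numbers up to 65535 were recovered by continued fractions, and the common factor was estimated from the other arrays of the tissue (assumed SD 0.4). Ratios were normalised by print-tip loess (span 0.3, 4 iterations, 48 blocks of 480 spots) against the fitted intensity. Symbols were updated by Entrez identifier through RefSeq (GRCm38.p6), which matched 15964 spots. Spots of a gene were averaged, giving 20218 features. Means were tested against 0 in limma 3.58.1 (R 4.3.3) per tissue, and tissue differences in 1 fit of 18 arrays. The steps were tested on simulated data.

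The receptor genes, partner list and tests were chosen with earlier results of these data known. Named were genes past the threshold per tissue, up to 5 tissue differences each way, the highest and lowest brain mean per class, and the 2 highest and 2 lowest partner genes past the threshold in brain. Other genes named were chosen after their values were seen. Alternatives changed the loess, intensity, filter on dim features, spot choice, fit and arrays used. The number of arrays limits precision.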

Additional observations from a re-analysis of the deposited data

Results flagged for a closer look

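A sample stood far from the other 5 of its group for 2 of 55 groups of 6 arrays looked at, where chance gives about 1 in 20. The groups looked at did not cover every gene in every tissue and were mostly genes past the threshold. Passing favours a small spread between arrays, so the rate by chance may not hold for them. Arrays described above, such as liver array 5 for Grin2d (-3.12), are not in this count. Brain array 1 gave -0.043 for Grin2a, with the others between -0.31 and -0.23. Kidney array 3 gave -0.74 for Htr4, with the others between -0.49 and -0.40.

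The strain ratio differed between tissues by the test of the difference itself for these genes. Brain minus kidney was -1.45 for P2rx5, -1.14 for Grin2c, -0.68 for Grin2b, -0.50 for Chrm2, -0.47 for Chrng, 0.45 for Htr5a, 0.42 for Htr1f, 0.40 for P2rx6, 0.38 for Htr4, 0.36 for Chrna5 and 0.35 for Htr3a. Brain minus liver was -1.17 for P2rx5, -1.0 for Htr6, -0.41 for Grin2a, -0.41 for Grin3b and 0.73 for Chrm3.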

How the results depend on the processing

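Counts of receptor genes past the threshold moved with the settings as follows. Without loess 37 passed in kidney (23 as reported), 25 for brain minus kidney (11) and 3 for brain minus liver (5), while the shares of all features went from 39.7% to 64.9%, 22.6% to 35.2% and 7.59% to 4.11%. Of the genes as reported, only 17 of 23, 6 of 11 and 2 of 5 were among those that passed without loess. In kidney Gria4 at 0.33 and Grik5 at 0.17 were reversed. With 1 loess curve per array 3 passed for brain minus liver (4.29% of all features) and 3 with 1 value per tissue (0 as reported, 1.99% of all features). With the intensity unrestored 19 passed for brain minus kidney (32.9% of all features), and the genes with every brain array brighter than all others numbered 2 in place of 6. For the latter the share of all features was not computed. With dim features filtered out only 34 of the 54 receptor genes were tested, of which 11 passed in kidney, 6 in liver (12) and 4 for brain minus kidney. The shares of all features kept were 37.2%, 24.7% and 26.9%. With all 18 arrays as separate values 25 passed over tissues (0 as reported, 37.7% of all features). Leaving out 1 array gave 3 to 9 genes in brain (7), with 3 without array 4 or 6 and 4 without array 5, 18 to 23 in kidney, and 7 to 13 in liver, with 7 without array 3 or 6. The shares of all features then ran from 6.41% to 16.5% in brain, 32.4% to 38.0% in kidney and 14.5% to 23.1% in liver. The replicate numbers were not taken to pair the arrays, since deviations of same-numbered arrays correlated between -0.0747 and 0.115 for brain with kidney and -0.23 and 0.059 for brain with liver. With the replicate block 11 genes passed for brain minus kidney and 5 for brain minus liver, the same genes as without it.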
